A study of Mus musculus with 3 samples.

Results

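Muscle satellite cells of the mouse larynx that carried transcripts of *Myod1* or *Myog* were compared with satellite cells of the same libraries that carried neither. A barcode was taken as a satellite cell when it had 500 to 8000 detected genes, 1000 to 40000 UMIs (unique molecular identifiers, each standing for 1 captured transcript), at most 8% mitochondrial UMIs, no *Epcam* UMI, at least 2 of the 6 genes *Pax7*, *Myf5*, *Chodl*, *Fgfr4*, *Cdh15* and *Calcr*, and not all of *Krt5*, *Ltf*, *Scgb3a1* and *Dcn*. Of 60530 barcodes, 2614 met this rule, and 632 of those had at least 1 UMI of *Myod1* or *Myog* and are called positive cells here. Since the cells were selected on the measured values of these 13 genes, the genes themselves are described without a test.

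The cells came from 3 libraries of larynges of *Lrig1CreERT2/+*; *ROSA LSL-tdTomato/+* mice, in which a tamoxifen-activated Cre made from the *Lrig1* locus switches on the red reporter tdTomato in cells with *Lrig1* activity and in their progeny. The reporter mice were given tamoxifen on consecutive days, and tissue was taken 24 h after recombination. Each library was a pool of 10 larynges from 5 males and 5 females, dissociated, sorted for tdTomato with gates set on wild-type and reporter-only mice, and run on the 10x Genomics 3' assay. The age of the animals is not given in the sources used here. No library was untreated or injured, every cell had passed the same sort, and both groups of cells therefore share all alleles and treatments.

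Satellite cells are the resident stem cells of skeletal muscle, lying between the fibre and its basement membrane and marked by the transcription factor Pax7. At rest they hold the myogenic factor Myf5 and little MyoD protein. When they are activated, MyoD, the product of *Myod1*, rises and can be followed by myogenin, the product of *Myog*, which drives withdrawal from the cell cycle, differentiation and fusion into fibres. MyoD and myogenin bind E-boxes, DNA elements with the letters CANNTG, as dimers with E proteins, and Id proteins bind those partners and keep them off DNA.

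The sequences before the transcription start of *Myod1*, *Myog* and *Lincmd1* are shown because the first pair defined the positive cells and the last had the largest fold difference between the groups. *Myod1* is a protein-coding gene at chr7:46025870-46028526, *Myog* is a protein-coding gene at chr1:134217707-134220287, and *Lincmd1* is a long noncoding RNA gene at chr1:20740106-20754522, all on the plus strand of GRCm39. Each window holds the 250 bases before the annotated start of the canonical transcript, 5′ to 3′, with each match to CANNTG on either strand in capitals; the element reads the same on both strands in its fixed letters. The windows are chr7:46025620-46025869, chr1:134217457-134217706 and chr1:20739856-20740105.
Myod1: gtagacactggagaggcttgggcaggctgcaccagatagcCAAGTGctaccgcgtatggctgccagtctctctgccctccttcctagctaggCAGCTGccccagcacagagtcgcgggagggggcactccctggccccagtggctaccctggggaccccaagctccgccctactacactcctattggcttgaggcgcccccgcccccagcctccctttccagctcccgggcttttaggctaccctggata
Myog: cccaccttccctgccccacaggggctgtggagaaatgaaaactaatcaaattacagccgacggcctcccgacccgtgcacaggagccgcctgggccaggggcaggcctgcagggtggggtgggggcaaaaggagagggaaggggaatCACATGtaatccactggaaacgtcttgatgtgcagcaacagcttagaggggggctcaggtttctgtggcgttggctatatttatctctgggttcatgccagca
Lincmd1: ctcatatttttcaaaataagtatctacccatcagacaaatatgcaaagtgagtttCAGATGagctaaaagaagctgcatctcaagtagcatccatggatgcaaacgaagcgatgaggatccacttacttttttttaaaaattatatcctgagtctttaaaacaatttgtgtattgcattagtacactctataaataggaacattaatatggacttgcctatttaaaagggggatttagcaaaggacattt
The *Myod1* window held 2 matches, which begin 210 and 158 bases before the start, the *Myog* window 1 match and the *Lincmd1* window 1 match. A match in such a window is common: 64.8% of the windows of 21770 protein-coding genes held at least 1 CANNTG, and 11.9% held CAGCTG, the form present before *Myod1*. *Lincmd1* is also the host of the muscle microRNA genes *Mir206* (chr1:20749234-20749306) and *Mir133b* (chr1:20752993-20753111), which lie inside it on the same strand. Their main mature products, as RefSeq gives them, are printed with the seed (bases 2 to 8) in capitals; mature microRNAs are not captured by this assay and have no value here.
mmu-miR-206-3p: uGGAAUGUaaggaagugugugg
mmu-miR-133b-3p: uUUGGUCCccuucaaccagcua
The seeds of the pair differ.

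*Myod1* and *Myog* positive cells were 20.1% of satellite cells in library 1 (158 of 785; 95% exact binomial interval 17.4 to 23.1%), 26.1% in library 2 (194 of 742; 23.0 to 29.5%) and 25.8% in library 3 (280 of 1087; 23.2 to 28.5%). Across the 3 libraries this came to 24.0% ± 3.38 (SD). These intervals cover counting error only. Libraries shared 46 to 165 barcode sequences in pairs, none of them in positive cells of both. In cell types that should lack both genes, and that were taken among barcodes without any of the 6 satellite genes, the share was 0.0904% of 22113 epithelial cells and 0.0867% of 3460 fibroblasts, at median depths of 16150 and 9930 UMIs against 6976 UMIs in satellite cells. Of 506 endothelial cells, 0 had such a UMI, which allows a share of up to 0.593% (3 counts of the total).

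**Figure D1:**
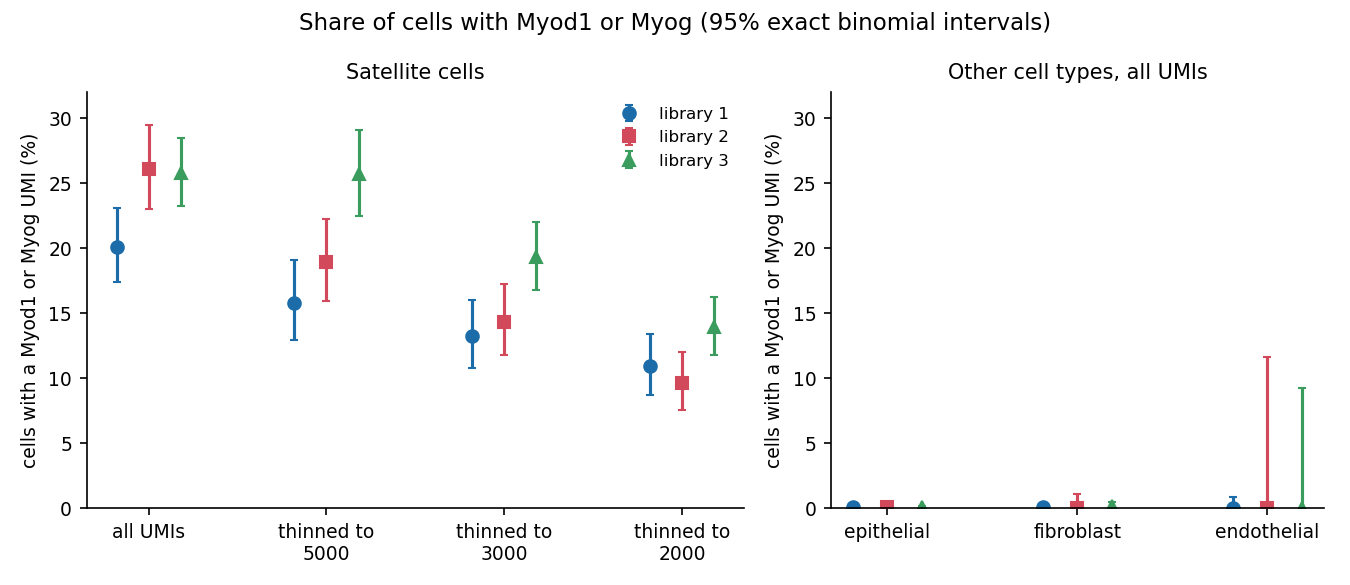
Percentage of cells with at least 1 *Myod1* or *Myog* UMI, with 95% exact binomial intervals, for satellite cells at full depth and thinned to 5000, 3000 and 2000 UMIs per cell (left) and for 3 other cell types at full depth (right); points are libraries 1 to 3. The satellite share falls with depth in every library, from 20.1 to 26.1% at full depth to 9.61 to 13.9% at 2000 UMIs, and the other types lie near 0, with wide intervals for the few endothelial cells of libraries 2 and 3.

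The call rested on few transcripts. Of the 632 positive cells, 330 (52.2%) had exactly 1 UMI of the pair of genes, 121 had 2 and 181 had 3 or more. With every satellite cell thinned to 3000 UMIs, and shallower cells left out, the share with a UMI was 13.2%, 14.3% and 19.3% in libraries 1, 2 and 3, so that library 2 stood highest at full depth and library 3 at equal depth. Negative cells may therefore include cells in which *Myod1* was present and not captured, and the differences below are between cells with a detected transcript and cells without one.

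Nearly all positive cells were positive by *Myod1*. In all, 624 of 632 had *Myod1* without *Myog*, 7 had both and 1, in library 2, had *Myog* alone. *Myog* positive cells numbered 3, 1 and 4 in libraries 1, 2 and 3, and a single cell of library 1 held 204 of the 285 *Myog* UMIs. At 3000 UMIs per cell, *Myod1* stood at 333, 265 and 414 CPM (UMIs of the gene per 1000000 UMIs of the summed cells, not scaled by gene length) in positive cells of libraries 1, 2 and 3.

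The other genes of the rule were selected for in both groups, so their presence on both sides was fixed by the rule. *Pax7* was found in 76.1%, 65.6% and 85.1% of positive cells and in 70.2%, 66.9% and 82.4% of negative cells of libraries 1, 2 and 3, all at 3000 UMIs per cell. *Myf5* stood at 584.5, 452 and 852 CPM in positive cells and at 757, 502 and 913 CPM in negative cells. *Calcr*, the calcitonin receptor of resting satellite cells, was at 249, 213 and 252 CPM in positive cells and at 316, 312 and 358 CPM in negative cells, lower in each library, and it was found in 33.3%, 29.1% and 39.7% of positive against 46.5%, 39.7% and 50.5% of negative cells. Cells just inside the rule, with 2 of the 6 genes, were 24 of the positive and 152 of the negative cells, while 159 and 493 cells had all 6. Outside it, 9 cells with *Myod1* or *Myog* had 1 of the 6 genes, 32 had 0 and 99 had at least 2 but also *Epcam*.

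Among satellite cell markers that the rule did not use, *Des*, the intermediate filament desmin, was found in 63.0%, 66.1% and 61.5% of positive cells and *Megf10*, a receptor of satellite cells, in 52.9%, 43.9% and 65.6%, in libraries 1, 2 and 3 at 3000 UMIs. *Vcam1* was found in 40.6%, 34.9% and 58.0%, *Msc* in 25.4%, 29.6% and 29.4%, and *Itga7* in 9.42%, 9.52% and 14.9%. These 5 genes were all present in both groups of every library.

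Positive cells had a median of 7604, 8586 and 6221 UMIs in libraries 1, 2 and 3, against 7191, 8250 and 5669 UMIs in negative cells, and were thus 1.04, 1.06 and 1.1 times as deep in libraries 2, 1 and 3. For this reason every cell was thinned to 3000 UMIs before the groups were compared, which left 138, 189 and 262 positive and 527, 501 and 649 negative cells. A doublet score marked 7 positive cells (1.11%) and 52 negative cells (2.62%). By library it marked 0.633%, 1.55% and 1.07% of positive and 3.51%, 0.365% and 3.47% of negative cells, so library 2 went the other way. The marked cells were kept, as the rule has no doublet filter. Transcripts of other cell types were present on both sides. At full depth, where positive cells were the deeper ones, 69.9% of positive and 66.0% of negative cells had UMIs of at least 2 genes of one list of another cell type. By library the shares were 67.7%, 46.9% and 87.1% of positive and 64.9%, 46% and 80.4% of negative cells of libraries 1, 2 and 3. At 3000 UMIs per cell, the summed level of 10 fibroblast markers was 391, 269.8 and 794 CPM in positive and 537, 243 and 1039.5 CPM in negative cells of libraries 1, 2 and 3. That of 10 epithelial markers was 203, 203 and 466 CPM in positive and 305.5, 145 and 571 CPM in negative cells. The leukocyte markers *Ptprc* and *Csf1r* and the Schwann cell marker *Sox10* had 0 UMIs in positive cells at this depth. The summed level over 7 neuroendocrine and thyroid genes was at most 21.7 CPM, and over 8 endothelial genes at most 41.1 CPM in either group. That of 6 cartilage genes was 67.6, 61.7 and 30.5 CPM in positive and 24.7, 29.9 and 30.3 CPM in negative cells of libraries 1, 2 and 3. The 1 member with counts enough to be tested was *Sox9*, a transcription factor of cartilage and other tissues (log2 fold change 0.58 ± 0.233 (SE), edgeR adjusted p = 0.499). The part of these other cell types in the differences between positive and negative cells was not tested.

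UMIs were summed per library and group, and the sums were tested with edgeR's quasi-likelihood test with the library as a block. Of 9937 genes tested, 38 (0.382%) differed at a Benjamini-Hochberg adjusted p under 0.05: 18 (0.181%) were higher and 20 (0.201%) lower in positive cells. All 38 went the same way in each of the 3 libraries, which their selection by a fit over these same libraries favours. Positive cells had more RNA of *Id3*, an inhibitor of E proteins, of the immediate-early gene *Egr1*, of the matricellular genes *Ccn1* and *Ccn2* and of the actin gene *Acta2*, and less of the natriuretic peptide gene *Nppc*, the endothelin gene *Edn3* and the receptor *Notch3*. The differences were moderate, from 1.19-fold (*Arhgap24*) to 3.52-fold (*Kazn*) apart from *Lincmd1* at 6.16-fold. At an unadjusted p under 0.05 there were 737 genes (7.42%). Over all tested genes the median log2 fold change was 0.006, with 5066 (51%) above 0 and 4871 (49%) below.

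The number of genes past the threshold depended on how depth was handled. Another random draw of 3000 UMIs per cell gave 64 genes, of which 30 were among the 38, and without library 1 there were 3 (*Nppc*, *Id3* and *Ccn2*); the 38 genes kept their direction in both. DESeq2 gave 4 (*Id3*, *Nppc*, *Acta2* and *Itih5*), and edgeR without the library block 0 (181 at an unadjusted p under 0.05). Of the 38, 16 passed in all 5 other handlings of depth: *Id3*, *Acta2*, *Ccn1*, *Ccn2*, *Egr1*, *Junb*, *Mt1* and *Peg3* higher, and *Nppc*, *Edn3*, *Notch3*, *Itih5*, *Hmcn2*, *Erfe*, *Sim2* and *Arhgap24* lower. *Bmper*, *Nudt4* and *Akr1b3* passed in at most 1 of the 5.

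**Figure D2:**
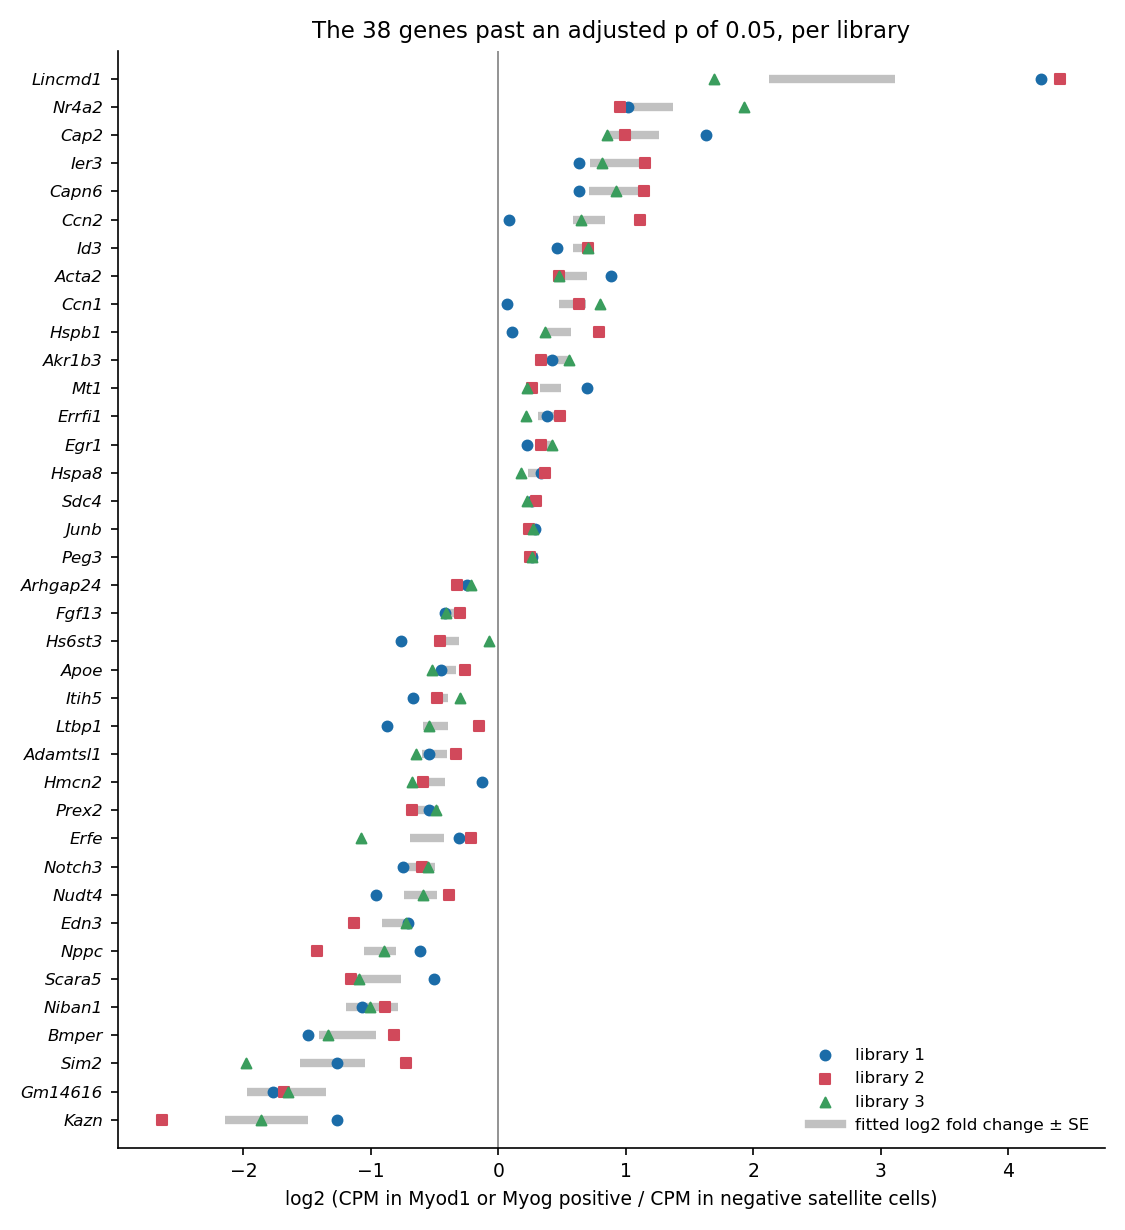
Log2 ratio of the CPM in *Myod1* or *Myog* positive cells to that in negative satellite cells for the 38 genes past an adjusted p of 0.05, one row per gene; points are libraries 1 to 3 and grey bars are the fitted log2 fold change ± SE. For every gene the 3 libraries lie on the same side of 0, which the choice of genes on these same libraries favours. *Lincmd1* lies farthest to the right, at 4 to 5 log2 units in libraries 1 and 2 and lower in library 3.

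*Lincmd1*, a noncoding RNA of differentiating myoblasts, had 10, 8 and 17 UMIs in the positive cells of libraries 1, 2 and 3 against 2, 1 and 13 UMIs in the larger groups of negative cells. It was found in 3.62%, 2.65% and 6.11% of positive and 0.380%, 0.200% and 1.39% of negative cells. The log2 fold change was 2.62 ± 0.493 (SE; edgeR adjusted p = 0.00567). In library 1, 8 of the 10 UMIs came from the 3 *Myog* positive cells; in libraries 2 and 3, 8 of 8 and 16 of 17 came from cells with *Myod1* alone. With the *Myog* positive cells left out, *Lincmd1* no longer reached the count needed to be tested.

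*Id3* encodes an inhibitor of DNA binding, a partner of E proteins without a basic domain. It stood at 579.7, 1129 and 500 CPM in positive and 420.0, 693 and 306 CPM in negative cells of libraries 1, 2 and 3. The positive value was the higher one in each library, by a log2 fold change of 0.65 ± 0.0674 (SE; edgeR adjusted p = 1.71e-06), the smallest adjusted p of all genes tested. *Id3* was found in 54.3%, 61.9% and 47.3% of positive and 39.8%, 51.3% and 34.4% of negative cells. It also passed with DESeq2, without each library in turn, and with *Myog* positive cells left out.

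*Acta2*, the smooth muscle actin that is also made by early myogenic cells, stood at 551, 268 and 571 CPM in positive and 297, 192 and 412 CPM in negative cells (log2 fold change 0.61 ± 0.0843 (SE), edgeR adjusted p = 1.72e-04). Of the *Acta2* UMIs of positive cells in library 1, 59 came from the 3 *Myog* positive cells and 169 from the 135 others. Without *Myog* positive cells its log2 fold change was 0.47 (edgeR adjusted p = 0.00154). *Acta2* is also 1 of 8 pericyte and smooth muscle markers, whose summed level was 618, 332 and 672 CPM in positive and 400.4, 254 and 502 CPM in negative cells of libraries 1, 2 and 3. Without *Acta2* the other 7 markers summed to 67.6, 63.5 and 100.5 CPM in positive and 103, 61.9 and 89.9 CPM in negative cells. Of these, *Myh11* and *Cnn1* had 0 UMIs in positive cells, and *Tagln* was at 36.2, 33.5 and 68.7 CPM in positive and 43.6, 22.6 and 55.0 CPM in negative cells. The part of such cells in the *Acta2* difference was not tested.

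*Ccn2* and *Ccn1*, matricellular proteins known as targets of YAP signalling, differed by log2 fold changes of 0.71 ± 0.125 and 0.58 ± 0.107 (SE; edgeR adjusted p = 0.00470 and 0.00567). *Ccn2* was at 309, 735 and 99.2 CPM in positive and 292, 341 and 63.2 CPM in negative cells. *Ccn1* was at 128, 647 and 123 CPM in positive and 122, 417 and 70.9 CPM in negative cells. Both differed least in library 1 and stood far higher in library 2 than in library 3. Without library 2 their log2 fold changes were 0.28 and 0.46 (edgeR adjusted p = 0.602 and 0.202).

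Among the other genes with the largest rises, *Nr4a2*, an orphan nuclear receptor of the early response, was at 21.7, 129 and 29.3 CPM in positive and 10.8, 66.5 and 7.70 CPM in negative cells (2.24-fold). It was found in only 2.9%, 11.6% and 2.67% of positive and 2.66%, 10.8% and 1.69% of negative cells. The share of cells with *Nr4a2* thus differed less than its level, and it passed in 3 of the 5 other handlings of depth. *Cap2*, an actin-binding protein of striated muscle, was at 62.8, 26.5 and 90.3 CPM in positive and 20.2, 13.3 and 49.8 CPM in negative cells (2.09-fold). *Ier3*, an immediate-early gene, was 1.91-fold higher and *Capn6*, a calpain without protease activity, 1.88-fold higher. *Hspb1*, a small heat shock protein of muscle and other tissues, was 1.38-fold higher, with 232, 439 and 363 CPM in positive and 214, 253.5 and 281.5 CPM in negative cells. It was at 552 to 792 CPM in epithelial and 682 to 948.5 CPM in endothelial cells, and at 38.3 to 50.6 CPM in fibroblasts. The part of other cell types in its difference was not tested. The remaining 8 genes that rose were *Akr1b3*, *Mt1*, *Errfi1*, *Egr1*, *Hspa8*, *Sdc4*, *Junb* and *Peg3*, by 1.20-fold to 1.38-fold.

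*Nppc*, the gene of C-type natriuretic peptide, stood at 145, 65.3 and 119.6 CPM in positive and 221, 175 and 223 CPM in negative cells of libraries 1, 2 and 3. Every positive value lay below every negative one. The log2 fold change was -0.93 ± 0.124 (SE; edgeR adjusted p = 1.43e-04). *Edn3*, the gene of endothelin 3, was at 118, 61.7 and 174 CPM in positive and 193.5, 135 and 287 CPM in negative cells, with a log2 fold change of -0.80 ± 0.114 (SE; edgeR adjusted p = 2.20e-04). Its groups overlap between libraries, but within each library the positive value was the lower.

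*Notch3*, a receptor of the Notch pathway that is known to restrain satellite cell activation, was at 116, 86.4 and 238 CPM in positive and 195, 131 and 348 CPM in negative cells (log2 fold change -0.60 ± 0.105 (SE), edgeR adjusted p = 0.00419). It was found in 23.2%, 15.9% and 43.9% of positive and 36.6%, 22% and 55.6% of negative cells. *Itih5*, an inhibitor chain that binds hyaluronan, was at 649.8, 596 and 728 CPM in positive and 1033.5, 831 and 897 CPM in negative cells, with no overlap (1.38-fold lower). *Hmcn2*, a matrix protein of the hemicentin family, was 1.43-fold lower, and *Erfe*, the hormone erythroferrone, 1.48-fold lower. Without library 3 their log2 fold changes were -0.38 and -0.24 (edgeR adjusted p = 0.308 and 0.748). These 4 genes, *Nppc* and the noncoding RNA *Gm14616* were at or below 64.3 CPM in the fibroblasts of every library.

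*Sim2*, a bHLH-PAS transcription factor known to repress *Myod1* in limb muscle, was at 24.2, 22.9 and 10.2 CPM in positive and 58.2, 37.9 and 40.1 CPM in negative cells (log2 fold change -1.30 ± 0.258 (SE), edgeR adjusted p = 0.00914), with no overlap between the groups. Without library 3 it was -0.99 (edgeR adjusted p = 0.151). *Kazn*, a desmosome-associated protein, had the largest fall, 3.52-fold, on 5, 2 and 9 UMIs in positive and 46, 33 and 81 UMIs in negative cells. *Gm14616*, a long noncoding RNA gene on chromosome 2, followed with 3, 2 and 13 UMIs against 39, 17 and 101 UMIs (3.17-fold lower). *Bmper* (2.27-fold), *Niban1* (1.99-fold), *Scara5* (1.96-fold) and *Nudt4* (1.53-fold) complete the 10 largest falls.

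Part of the genes that fell are also genes of fibroblasts. *Scara5* reached 441 to 462 CPM in fibroblasts against at most 74.5 CPM in satellite cells, *Kazn* 120 to 179 CPM against at most 41.6 CPM, and *Niban1* 164.5 to 178 CPM against at most 66.3 CPM. *Ltbp1*, *Apoe* and *Adamtsl1*, which fell 1.32-fold to 1.41-fold, reached 674, 1550.4 and 449.7 CPM in fibroblasts, above their highest sums in satellite cells of 428, 708 and 295 CPM. Of the 10 fibroblast markers, 6 could be tested; none passed the threshold with edgeR (2 at an unadjusted p under 0.05, 0 with DESeq2), all 6 had negative log2 fold changes and their median was -0.40, against 49% and 0.006 over all tested genes. *Dpt*, for example, was at 126, 82.9 and 212.5 CPM in positive and 207.5, 99.8 and 278 CPM in negative cells (log2 fold change -0.45 ± 0.112 (SE), edgeR adjusted p = 0.0786). *Dcn*, a rule gene, was at 1234, 2335 and 388 CPM in positive and 2348.5, 2573 and 739 CPM in negative cells. A further fit left out every cell with UMIs of 2 or more genes of a list of another cell type. Before thinning, this took out 107 of 158, 91 of 194 and 244 of 280 positive cells of libraries 1, 2 and 3. In the few cells left, 30 of the 38 genes could be fitted, all 30 kept their direction, and *Id3* and *Ccn2* passed. The part of other cell types in the differences was not tested.

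**Figure D3:**
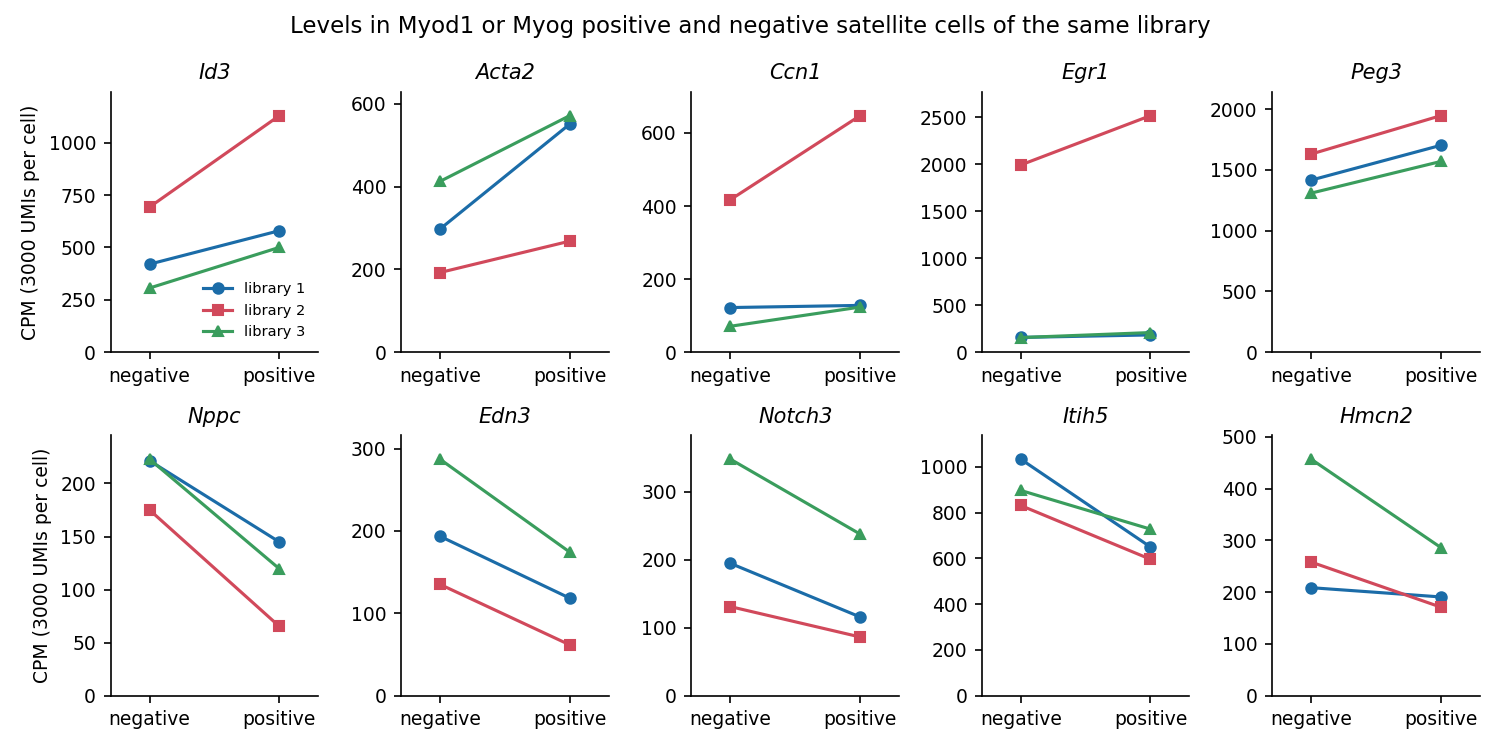
CPM of 10 of the 16 genes that passed in every handling of depth, in negative and positive satellite cells thinned to 3000 UMIs; each line joins the 2 groups of 1 library. Lines rise for *Id3*, *Acta2*, *Ccn1*, *Egr1* and *Peg3* and fall for *Nppc*, *Edn3*, *Notch3*, *Itih5* and *Hmcn2* in all 3 libraries, while the level itself differs between libraries, most of all for *Egr1*.

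The gene lists were chosen with earlier results of these data known. Their shares beside those of all tested genes are therefore descriptions and carry no test. Of the immediate-early and dissociation response, 27 of 30 genes were tested and 4 (*Ier3*, *Hspb1*, *Egr1* and *Junb*) rose, against 0.181% of all tested genes. Positive log2 fold changes were found for 22 of the 27, against 51% of all tested genes, with a median of 0.23. These are signs of the fit over 3 libraries, and not all of these genes were higher in each library. The ratio of positive to negative CPM in libraries 1, 2 and 3 was 0.509, 1.58 and 0.803 for *Atf3* and 0.797, 1.09 and 1.24 for *Fos*. For *Ier2* it was 1.24, 1.11 and 1.45. At an unadjusted p under 0.05 in edgeR there were 16, against 7.42% of all tested genes. *Egr1* was at 184, 2518.5 and 209 CPM in positive and 157, 1993 and 156 CPM in negative cells of libraries 1, 2 and 3, a log2 fold change of 0.36 ± 0.0658 (SE; edgeR adjusted p = 0.00566). *Junb* was at 386.5, 2998 and 293 CPM in positive and 317.5, 2543 and 241 CPM in negative cells (1.21-fold). The summed level of the 30 genes was 27954 and 24044 CPM in positive and negative cells of library 2, against 4646 to 5318 CPM in the sums of libraries 1 and 3. The list was thus highest in library 2 in both groups, and its part in the differences between them was not tested. Without library 2 the log2 fold changes of *Ier3*, *Hspb1*, *Egr1* and *Junb* were 0.72, 0.27, 0.34 and 0.28, and edgeR adjusted p-values were 0.382, 0.393, 0.347 and 0.333.

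Of 20 genes of early activation and injury response, 14 were tested. *Ccn2*, *Ccn1* and *Mt1*, a metallothionein, rose, against 0.181% of all tested genes, and the median was 0.15. Positive log2 fold changes were found for 13 of the 14, against 51% of all tested genes. Here too the sign of the fit did not hold in each library for every gene. The ratio of positive to negative CPM in libraries 1, 2 and 3 was 1.09, 1.19 and 0.693 for *Cebpb* and 0.658, 1.89 and 1.38 for *Tnfrsf12a*. For *Mt2* it was 1.46, 1.09 and 1.11. At an unadjusted p under 0.05 in edgeR there were 5, against 7.42%. Of 18 quiescence genes, 17 were tested: *Peg3*, an imprinted gene of muscle stem cells, and the syndecan *Sdc4* rose by 1.20-fold and 1.21-fold, *Notch3* fell, and the median was -0.05. Over all tested genes 0.382% passed the threshold. At an unadjusted p under 0.05 in edgeR there were 5 of the 17, against 7.42% of all tested genes. *Peg3* stood at 1703, 1947 and 1570.0 CPM in positive and 1416, 1631 and 1309 CPM in negative cells. Among 18 surface and niche receptors, all tested, *Sdc4* rose and *Notch3* fell, against the same 0.382% (5 at an unadjusted p under 0.05 in edgeR). The Notch pathway list had 14 tested members, of which *Notch3* alone passed with edgeR, against the same 0.382% (3 at an unadjusted p under 0.05), and the median was -0.10. Negative log2 fold changes were found for 9 of the 14, against 49% of all tested genes.

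Of 26 partners and inhibitors of MyoD, 22 were tested and *Id3* passed, against 0.382% of all tested genes, with a median of 0.06 (4 at an unadjusted p under 0.05 in edgeR). Of 30 genes of myoblast commitment and fusion, 13 were tested and none passed with edgeR (4 at an unadjusted p under 0.05, against 7.42% of all tested genes, and 0 with DESeq2); the median was 0.20, and the most abundant members were *Mest* at a mean of 291 CPM and *Chrnb1* at 157 CPM. The acetylcholine receptor subunit *Chrna1* (log2 fold change 0.68 ± 0.172 (SE), edgeR adjusted p = 0.0799) and the RNA-binding protein *Rbm24* (0.92 ± 0.238 (SE), edgeR adjusted p = 0.0987) came nearest, and were picked out after their values were seen. In positive cells of library 1, 14 of the 25 *Rbm24* UMIs and 3 of the 31 *Chrna1* UMIs came from the 3 *Myog* positive cells. Of 29 sarcomere and excitation genes, 10 were tested and none passed with edgeR (4 at an unadjusted p under 0.05, against the same 7.42%, and 0 with DESeq2), with a median of 0.32. Their most abundant members were *Des* (log2 fold change 0.13 ± 0.0789 (SE), edgeR adjusted p = 0.758) and *Tpm1* (0.28 ± 0.111 (SE), edgeR adjusted p = 0.469). The same 3 cells held 11 of the 14 *Ttn* and 14 of the 25 *Tnnt1* UMIs of positive cells in library 1. They held 0 of the 13 *Neb* and 5 of the 187 *Des* UMIs.

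Of 18 matrix genes of satellite cells, 15 were tested and none passed with edgeR (1 at an unadjusted p under 0.05, 0 with DESeq2). The median was -0.12, and 14 of 15 had log2 fold changes below 0, against 49% of all tested genes. *Lama2*, a laminin chain, was the most abundant at a mean of 989.5 CPM, followed by *Sparc* at 774 CPM. Some of these genes are higher in fibroblasts than in any sum of satellite cells. *Sparc* was at 1733 to 4544 CPM there against at most 1157 CPM, and *Nid1* at 288 to 302.5 CPM against at most 16.4 CPM. Others are not, such as *Col5a3* at 13 to 34.8 CPM against up to 77.6 CPM. The part of fibroblast transcripts in this list was not tested. Also with no gene past the threshold with edgeR or DESeq2 were 19 ribosome biogenesis genes (median 0.09), 83 ribosomal protein genes (0.01), 13 mitochondrially encoded genes (-0.03), 18 genes of IGF, FGF and TGF-beta signals (0.09), 12 upstream factors of head and limb muscle (0.07), 13 G1 cyclins and CDK inhibitors (0.06), 8 S phase genes (0.17) and 4 adult fibre transcripts (0.21). At an unadjusted p under 0.05 these lists had 1, 0, 2, 4, 4, 1, 0 and 0 genes in edgeR, against 7.42% of all tested genes.

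**Figure D4:**
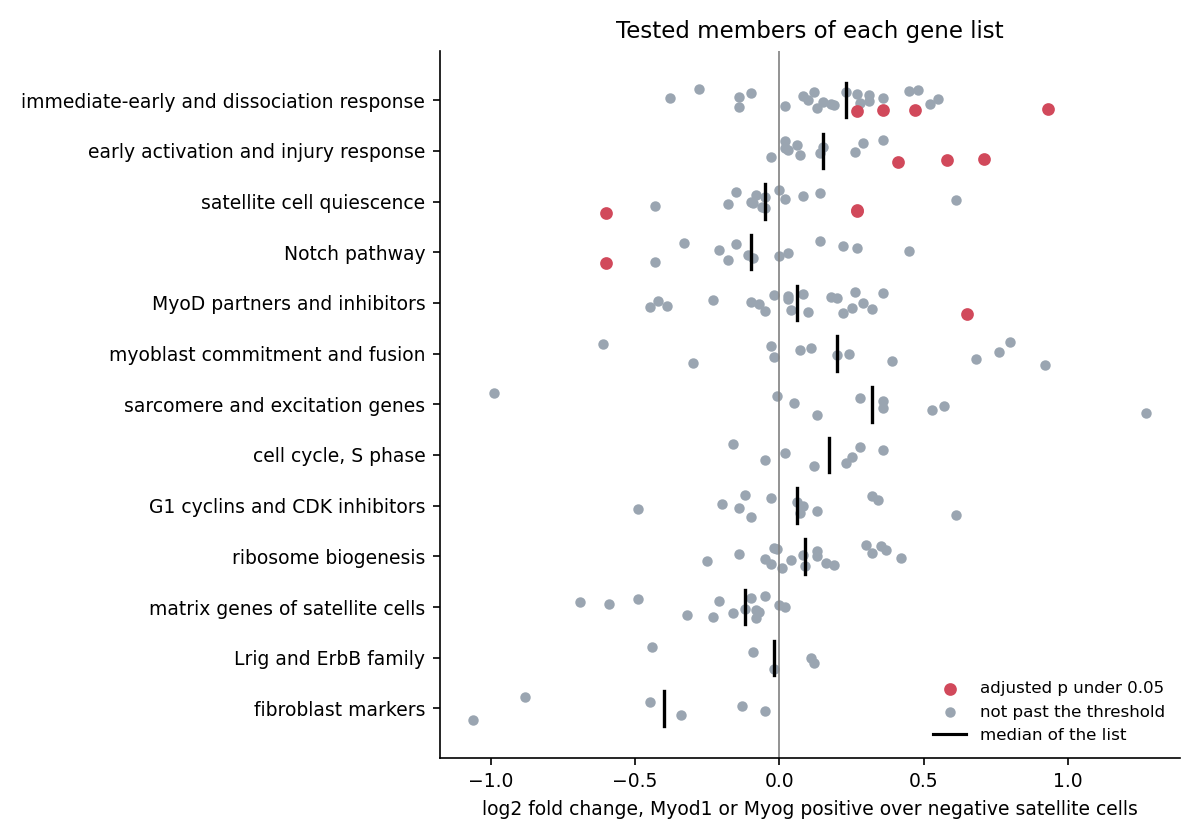
Log2 fold change, positive over negative satellite cells, of each tested gene of 13 lists; red points passed an adjusted p of 0.05, grey points did not, and black bars are list medians. Genes of the immediate-early and early activation lists lie mostly right of 0 and hold 7 of the red points, and the satellite cell matrix genes and fibroblast markers lie mostly left of 0 without a red point.

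Transcripts of dividing cells were rare on both sides. *Mki67*, a marker of cycling cells, had a UMI in 1.45%, 0.529% and 2.29% of positive and 0.759%, 0.599% and 0.924% of negative cells of libraries 1, 2 and 3 at 3000 UMIs. At least 2 genes of the G2 and M phases were found in 0 of 138, 1 of 189 and 8 of 262 positive cells, and in 3 of 527, 3 of 501 and 6 of 649 negative cells. The 0 of library 1 allows a share of up to 2.17% (3 counts of 138). Only *Tpx2* of the 20 G2 and M genes had counts enough to be tested, and which group had the higher share in a library depended on the depth chosen. At 3000 UMIs it was the positive cells in library 3 alone, at 2000 UMIs in libraries 1 and 2 and at 5000 UMIs in library 2 alone. At full depth, where positive cells were the deeper ones, the shares were 3.80%, 4.12% and 5.00% of positive and 2.07%, 3.10% and 4.09% of negative cells, higher by 1.22 percentage points ± 0.439 (SD, n = 3).

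Positive cells differed among themselves by how many *Myod1* and *Myog* UMIs they held at full depth. That number depends on the depth of a cell as well as on its *Myod1* and *Myog* level. The cells were thinned only after this split, and the depths of the resulting groups were not compared. *Id3* was at 420.0, 564, 533 and 657 CPM in cells of library 1 with 0, 1, 2 and 3 or more such UMIs, at 693, 955, 1252.5 and 1456.5 CPM in library 2, and at 306, 428, 562.5 and 554 CPM in library 3. *Nppc* was at 221, 186, 95.2 and 114 CPM in library 1, at 175, 78.8, 80.8 and 21.7 CPM in library 2, and at 223, 129, 208 and 64.6 CPM in library 3. *Notch3* was at 195, 147, 85.7 and 85.7 CPM in library 1, at 131, 87.9, 80.8 and 87.0 CPM in library 2, and at 348, 287, 250 and 173.5 CPM in library 3. For each of the 3 genes the cells with 0 UMIs stood apart from the rest in 1 direction in every library, while the order among 1, 2 and 3 or more UMIs varied between libraries. *Acta2* stood highest with 3 or more UMIs in each library, without a steady rise below that. With 0, 1, 2 and 3 or more UMIs it was at 297, 265, 390.5 and 1267 CPM in library 1. It was at 192, 212, 101 and 522 CPM in library 2, and at 412, 566, 396 and 663 CPM in library 3. The positive cells of library 1 include the 3 *Myog* positive cells, which held 59 *Acta2* UMIs.

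Of the 18 genes that rose, 11 were already higher with 1 UMI than with 0 in all 3 libraries, and 8 were higher with 3 or more UMIs than with 1 in all 3. Of the 20 that fell, 17 were lower with 1 UMI than with 0 in all 3 libraries, and 9 of the 20 were lower with 3 or more UMIs than with 1 in all 3. The 9 are not a subset of the 17: *Hmcn2* in library 1 was at 208.7 CPM with 0, 225.5 CPM with 1 and 171 CPM with 3 or more. These counts describe genes chosen on the same cells and carry no test. The group with 3 or more UMIs held 35, 46 and 98 cells in libraries 1, 2 and 3.

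**Figure D5:**
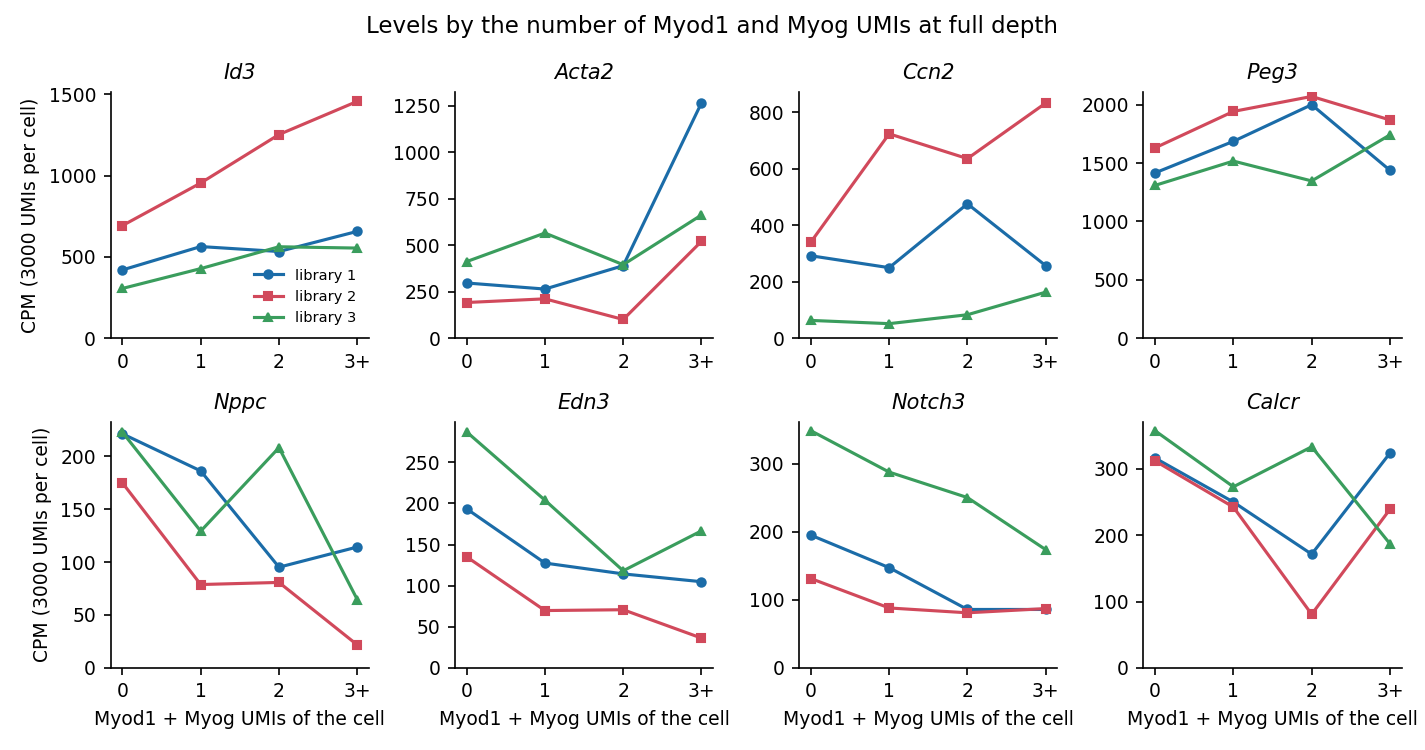
CPM of 8 genes in satellite cells with 0, 1, 2 and 3 or more *Myod1* and *Myog* UMIs at full depth, thinned to 3000 UMIs after this split. Lines are libraries 1 to 3. *Id3* is higher at 3 or more UMIs than at 0 in each library, *Acta2* is highest at 3 or more, *Nppc*, *Edn3* and *Notch3* are highest at 0, and *Calcr* and *Peg3* follow no common course above 1 UMI.

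The *Myog* positive cells, 8 in all at 3000 UMIs, were too few to be tested against the 581 with *Myod1* alone, and are given as UMIs. Those of libraries 1 to 3 together held 1 *Pax7* UMI and 5 *Myf5* UMIs, while the 581 others held 1059 and 1163. *Mymk*, the fusion protein myomaker, had 8 UMIs in the 3 cells of library 1 and 0 in the 581 others. *Tnnt1*, the slow troponin T, had 20 UMIs in the 8 cells and 129 in the 581, and *Ttn*, the giant sarcomere protein titin, 13 and 20. *Rbm24* had 16 UMIs in the 8 cells and 73 in the 581. Not every muscle gene followed this: the sarcomere gene *Neb* had 1 UMI in the 8 cells and 91 in the 581, and *Mymx* and *Myh3*, of fusion and of developing fibres, had 0 in both. Most of these UMIs were from library 1, with 37 of the 41 *Myog* UMIs, 14 of the 20 *Tnnt1* UMIs and 11 of the 13 *Ttn* UMIs. These genes were chosen after their values were seen.

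*Lrig1*, the gene whose activity labelled the cells, encodes a membrane protein that lowers ErbB receptor levels. At 3000 UMIs it was found in 18.1%, 31.2% and 22.1% of positive and 25.0%, 26.7% and 20.5% of negative satellite cells of libraries 1, 2 and 3. The difference, positive minus negative, was -0.273 percentage points ± 5.94 (SD, n = 3), with opposite signs in libraries 1 and 2; 3 paired differences cannot go below p = 0.25 in an exact two-sided sign test. At full depth *Lrig1* was found in 38%, 52.1% and 35.7% of positive cells and 43.2%, 51.1% and 35.8% of negative cells. Its level was 67.6, 136 and 85.2 CPM in positive and 96.8, 117 and 85.3 CPM in negative cells, a log2 fold change of -0.02 ± 0.142 (SE; edgeR adjusted p = 0.983).

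Of the 7 genes of the Lrig and ErbB family, 5 were tested and none passed with edgeR (0 at an unadjusted p under 0.05, 0 with DESeq2). The log2 fold changes were 0.12 ± 0.168 (SE) for *Lrig2*, 0.11 ± 0.205 for *Lrig3*, -0.09 ± 0.0722 for *Egfr* and -0.44 ± 0.260 for *Erbb4*. *Egfr* was the most abundant member, at 488, 473 and 440.2 CPM in positive cells. *Erbb2* and *Erbb3* had at most 14.0 CPM in any sum and were not tested.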

How the data were processed

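Whole-number UMI counts per gene and barcode, not normalized, were deposited by the authors, who used Cell Ranger 8.0.1 and the GRCm39 build per the submitters' processing notes. The members and gene lists were chosen with earlier results of these data known.

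All genes and barcodes were read, and of 33696 features the 52 that share a symbol were kept apart by gene ID. Satellite cells were thinned to 3000 UMIs (fixed seed) and summed per library and group (414000 to 1947000 UMIs per sum). The sums were tested two-sided with edgeR 4.0.16 in R 4.3.3 (TMM, filterByExpr, glmQLFit, glmQLFTest), with the library as a block because each pool of animals gave a positive and a negative sum. In libraries 1, 2 and 3 these paired sums deviated together, with correlations of 0.193, 0.543 and 0.562 across genes. P-values were Benjamini-Hochberg adjusted over all tested genes, threshold 0.05; SEs are the log2 fold change over the root of F. The pools are separate, and with the library as a block the fit compares the groups within each of 3 pools. The dispersion of each gene is estimated with information from the other genes. P-values and SEs therefore measure a gene's own spread over the 3 pools only in part. For *Ccn2* the ratio of positive to negative CPM was 1.06, 2.16 and 1.57 in libraries 1, 2 and 3, beside an SE of 0.125 (log2). The script was tested on simulated data. DESeq2 1.42.0, other normalization, filters, depths, doublet removal and left-out libraries were alternatives; 3 alternatives were added after the data were seen.

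Genes named are the rule genes, the Lrig and ErbB list, the 10 largest rises and 10 largest falls (mean level 10 CPM or more, 1 direction in all libraries), and from each list up to 4 members past the threshold or its 2 most abundant. Others were named after their values were seen. Of the features, 33185 were found in the GENCODE annotation of GRCm39 that gave coordinates and upstream sequence; microRNAs are from RefSeq (GRCm38.p6 table, no coordinates taken). Some measured items are not reported here.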

Additional observations from a re-analysis of the deposited data

How the results depend on the processing

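The count of 38 genes between positive and negative satellite cells was 103 without a filter on low counts, 94 with cells thinned to 5000 UMIs, 159 without thinning, 4 with DESeq2, and 3 to 82 when 1 library was left out (3 without library 1, 82 without library 2, 40 without library 3). Without the replicate block it was 0 with edgeR (181 at an unadjusted p under 0.05). Chosen after seeing the data, another draw of UMIs gave 64 and leaving out cells with 2 or more genes of another cell type gave 3. With 6 other alternatives and without *Myog* positive cells it was 32 to 56. Every one of the 38 genes kept its sign wherever it could be fitted, in fits that mostly reuse the cells that picked them. The threshold was lost by 35, 8 and 18 of them without libraries 1, 2 and 3. The share of positive cells was 20.1%, 15.6% and 11.5% at 5000, 3000 and 2000 UMIs. *Lrig1* ranged from -0.20 to 0.12 and *Lrig2* from -0.04 to 0.19 (log2) with 1 library left out; *Lrig2* was -0.06 at 2000 UMIs and *Lrig3* -0.01 with cells matched on UMI count. The test of *Myog* positive against *Myod1* positive cells and its alternatives were not run, since under 20 *Myog* positive cells were present per library. Detection of single transcripts limits the call of negative cells, and 3 pools limit all tests.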
